A study of Meriones unguiculatus with 18 samples.

Results

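The antioxidant genes Hmox1, SRXN1, Gpx4 and Cat were followed in the liver of the Mongolian gerbil (Meriones unguiculatus) on a normal diet (ND) and a high-fat diet (HFD). They were found by name in the deposited expression table, in any letter case, and are 4 of 3187 distinct gene names there. Each was read from 1 assembled transcript, called a unigene: TRINITY_DN32304_c0_g1 for Hmox1, TRINITY_DN34948_c2_g7 for SRXN1, TRINITY_DN29105_c0_g1 for Gpx4 and TRINITY_DN31316_c0_g1 for Cat. All 4 names are also symbols of the RefSeq annotation of the gerbil. A further unigene named CAT (TRINITY_DN36202_c4_g1) had values of 0 to 4.17, too low to be tested.

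Cells remove reactive oxygen in steps, and the 4 genes act at different ones. Superoxide is turned into hydrogen peroxide by the superoxide dismutases; catalase, the product of Cat, breaks hydrogen peroxide down in the peroxisome, and hepatocytes are among the cells richest in it. Gpx4 encodes a selenium-containing glutathione peroxidase that reduces lipid peroxides within membranes and thereby restrains ferroptosis, an iron-dependent form of cell death. Srxn1 encodes sulfiredoxin, which restores peroxiredoxins after peroxide has overoxidised them. Hmox1 encodes haem oxygenase 1, which splits haem into biliverdin, iron and carbon monoxide and is abundant in macrophages that clear red cells. In mouse and human, Hmox1 and Srxn1 are well-known targets of the transcription factor NRF2 (Nfe2l2).

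Livers of male gerbils kept on ND or HFD were sampled after 4 weeks (groups ND 4W and HFD 4W) and 16 weeks (ND 16W and HFD 16W), and each group has 3 of the 12 libraries used. To 80.5% ordinary feed the HFD added 2% cholesterol, 0.5% bile salt, 7% lard and 10% powdered egg yolk. Animals are counted as 36 in one text of the labels and as 18 in another, so a library may hold 1 animal or a pool, and the error given here is the spread between libraries. The study presents this feeding as a model of fatty liver disease, and the comparisons ask how the liver transcriptome differed with diet and with time on it.

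The values are the authors' normalized expression levels. All libraries share nearly 1 set of sorted values, so a value reflects the rank of a unigene in its library, sequencing depth is unknown, and intervals for counting error are left out. The 8-week columns do not pair with the gene names (Pearson's r of 0.00114 to 0.0320 across unigenes with the libraries of the other times, 72 pairs) and were left out. ALB, for serum albumin of the hepatocyte, stood between 5760 and 28764 in the 12 libraries and at the top value in every ND library. The libraries fell into sets that ran with diet: 166 unigenes were detected, that is, above the lowest value of the library, in all 6 ND libraries and in no HFD library. Another 157 were detected in the HFD libraries numbered 1 alone, and 380 in the HFD libraries numbered 2 and 3 alone. Diet and library set cannot be told apart. All 4 antioxidant genes were detected in all 12 libraries, and 9487 unigenes with a mean of at least 1 were tested together.

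On HFD at 4 weeks Hmox1 was higher and Gpx4 lower than on ND, and at 16 weeks Hmox1, SRXN1 and Gpx4 were higher and Cat lower. A gene was called when its limma p-value, adjusted by Benjamini-Hochberg over all 9487 unigenes, was under 0.05. At 4 weeks 2 of the 4 genes were called, 1 higher and 1 lower on HFD, beside 12.1% of all unigenes tested (4.89% higher and 7.22% lower). At 16 weeks 4 of the 4 were called, 3 higher and 1 lower, beside 35.2% of all unigenes (15.3% higher and 19.9% lower). Hmox1 was called higher at both times, as were 2.98% of all unigenes, while 5.21% were called lower at both. The HFD and ND libraries did not overlap for 3 of the 4 genes at 4 weeks and for all 4 at 16 weeks. At 4 weeks 11.9% of all unigenes stood higher in every HFD library and 19.2% lower in every one. At 16 weeks these shares were 20.4% and 28.2%. Hmox1, SRXN1 and Gpx4 were chosen with earlier results of these data known, as was Cat, so these counts describe the genes and do not single them out.

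**Figure D1:**
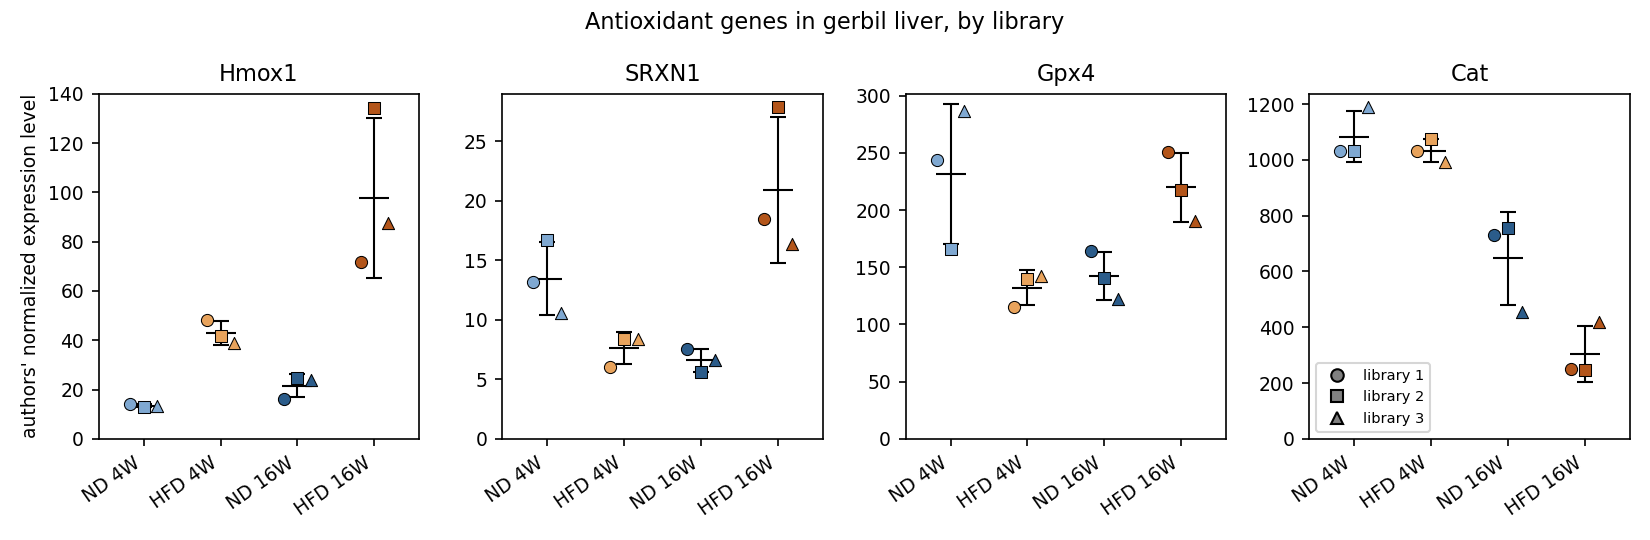
The authors' normalized expression level (linear axis from 0) of Hmox1, SRXN1, Gpx4 and Cat in each of 12 liver libraries, 3 per group; marker shapes give the library number, and bars the mean and SD. Hmox1 is highest and Cat lowest in HFD 16W, while SRXN1 and Gpx4 are lower on HFD than on ND at 4 weeks and higher at 16 weeks.

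Hmox1, the haem-degrading enzyme, was the gene with the largest diet difference of the 4 at either time. On ND at 4 weeks its levels were 14.2, 13.1 and 13.3 in libraries 1 to 3, and on HFD they were 48.2, 41.9 and 38.8. At 16 weeks they were 16.2, 24.6 and 24.0 on ND and 71.6, 134 and 87.5 on HFD. Every HFD library lay above every ND library of either time, and HFD 16W 2 was the highest of all. The group means were 13.5 ± 0.583 (ND 4W), 43.0 ± 4.81 (HFD 4W), 21.6 ± 4.73 (ND 16W) and 97.7 ± 32.5 (HFD 16W; SD, n = 3 each). On the scale of log2(value + 1), HFD exceeded ND by 1.60 at 4 weeks (SE 0.22, limma adjusted p = 0.000939) and by 2.10 at 16 weeks (SE 0.22, adjusted p = 3.74e-05). This placed Hmox1 above 95.2% of all unigenes at each time. The 2 diet effects differed by 0.50 on the log2 scale, which was not called (95% interval -0.18 to 1.19, limma adjusted p = 0.374). In order of level the groups ran ND 4W, ND 16W, HFD 4W and HFD 16W with no overlap, but the step between the ND groups was not called (log2 0.62, limma adjusted p = 0.188).

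SRXN1, sulfiredoxin, went from the lower side of the ND libraries at 4 weeks to the higher side at 16 weeks. At 4 weeks its levels were 13.2, 16.7 and 10.6 on ND and 6.04, 8.37 and 8.405 on HFD. At 16 weeks they were 7.54, 5.63 and 6.60 on ND and 18.5, 27.9 and 16.3 on HFD. The diets did not overlap at either time, with HFD below ND early and above it late. The 4-week difference of -0.74 on the log2 scale was not called (SE 0.23, limma adjusted p = 0.0545). Of 12 fits without 1 library, 2 brought it under 0.05, without ND 4W 3 (0.0497) or HFD 16W 2 (0.0316). In others the adjusted p rose, to 0.167 without ND 4W 2 and 0.146 without HFD 4W 1. After median-ratio rescaling it was 0.16. At 16 weeks SRXN1 rose by log2 1.501 on HFD (SE 0.23, limma adjusted p = 0.000422). The change of the diet effect between times was itself called, at log2 2.24 (SE 0.32, limma adjusted p = 0.0023), and was larger than that of 97.2% of all unigenes. It was called in every fit that left out 1 library (log2 2.02 to 2.39). Among the 4 genes 2 were called for this change, SRXN1 and Gpx4, both upward, beside 10.1% of all unigenes (5.5% upward and 4.61% downward). Like these genes, 2.66% of all unigenes had a called change with a negative log2 fold change at 4 weeks and a positive one at 16 weeks.

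The mean level of SRXN1 was 13.5 ± 3.06 in ND 4W and 6.59 ± 0.955 in ND 16W, and it was 7.60 ± 1.36 in HFD 4W and 20.9 ± 6.15 in HFD 16W (SD, n = 3 each). The rise on HFD was called (log2 1.32, SE 0.23, limma adjusted p = 0.00179), whereas the ND groups, which did not overlap either, differed by log2 -0.92 without a call (adjusted p = 0.076). In order of level ND 16W and HFD 4W overlapped, as did ND 4W and HFD 16W by a narrow margin (a highest value of 16.7 in ND 4W and a lowest of 16.3 in HFD 16W). The assembly placed the SRXN1 unigene in 1 component with other unigenes, of which Nhp2 (a protein of small nucleolar RNA complexes) and Cog8 (a Golgi tethering protein) carry names. Nhp2 was lower on HFD at 4 weeks, as SRXN1 was, and also at 16 weeks (log2 -0.86 and -0.48, limma adjusted p = 0.0016 and 0.0137). Cog8 was lower at 16 weeks (-1.03, 0.000938) and not called at 4 (-0.44, 0.136). Neither had a called change of the diet effect (log2 0.38, limma adjusted p = 0.247, for Nhp2 and -0.59, 0.172, for Cog8).

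Gpx4, the membrane lipid peroxidase, had the same order of diets as SRXN1 with smaller differences. At 4 weeks its levels were 243, 166 and 286 on ND and 115, 139 and 143 on HFD. At 16 weeks they were 164, 140.5 and 123 on ND and 251, 218 and 191 on HFD. The groups of 1 time did not overlap, but ND 16W overlapped HFD 4W, and HFD 16W overlapped ND 4W. The means were 232 ± 61.1 in ND 4W and 132 ± 15.2 in HFD 4W, and at 16 weeks 142 ± 20.9 in ND and 219.8 ± 30.0 in HFD (SD, n = 3 each). Gpx4 fell by 0.78 on the log2 scale on HFD at 4 weeks (SE 0.22, limma adjusted p = 0.0389) and rose by 0.62 at 16 weeks (SE 0.22, adjusted p = 0.0432). It was 1 of 6 unigenes in 9487 that were called lower at 4 weeks and higher at 16 weeks (0.0632%). The others were Ctsa, for lysosomal cathepsin A, SF3B2, Rrbp1, MUC17 and a unigene with no name. The change of the diet effect was called (log2 1.40, SE 0.31, limma adjusted p = 0.0152), also in each fit without 1 library (log2 1.23 to 1.62), but not without both HFD libraries numbered 1 (log2 1.20, adjusted p = 0.0849).

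Both calls of Gpx4 within a time lay close to the threshold. At 4 weeks limma's adjusted p rose past 0.05 without ND 4W 1 (0.114), ND 4W 3 (0.133), HFD 4W 1 (0.107), HFD 4W 2 (0.0766), HFD 4W 3 (0.0768) or ND 16W 2 (0.0552), and after median-ratio rescaling of the libraries (log2 -0.58, adjusted p = 0.0927). The 16-week call was lost without ND 4W 1 (0.0537), HFD 4W 2 (0.055), HFD 4W 3 (0.0544), ND 16W 2 (0.0959), ND 16W 3 (0.14), HFD 16W 1 (0.128) or HFD 16W 2 (0.0829). With the library number as a block both missed the threshold (adjusted p = 0.0604 and 0.0612). All of these fits kept the sign of each difference.

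Cat, the peroxisomal catalase, was level between the diets at 4 weeks and lower on HFD at 16 weeks. At 4 weeks its values were 1031, 1031 and 1189 on ND and 1031, 1073 and 991 on HFD. At 16 weeks they were 731, 756 and 455 on ND and 249, 246 and 420.4 on HFD. The diets overlapped at 4 weeks, where 3 libraries share the value 1031 because Cat held the same rank in each of them. It ranked 13 to 17 among 13172 unigenes in the libraries of 4 weeks, 24 to 43 in ND 16W and 47 to 85 in HFD 16W. The 4-week difference was log2 -0.07 (95% interval -0.72 to 0.58, limma adjusted p = 0.92). At 16 weeks the means were 647 ± 167 on ND and 305 ± 99.8 on HFD (SD, n = 3 each), a log2 fold change of -1.09 (SE 0.30, limma adjusted p = 0.0141). That call was lost without ND 16W 1 (adjusted p = 0.0502), ND 16W 2 (0.0573) or HFD 16W 1 (0.0577). The change of the diet effect, log2 -1.02, was not called (95% interval -1.95 to -0.10, limma adjusted p = 0.163).

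**Figure D2:**
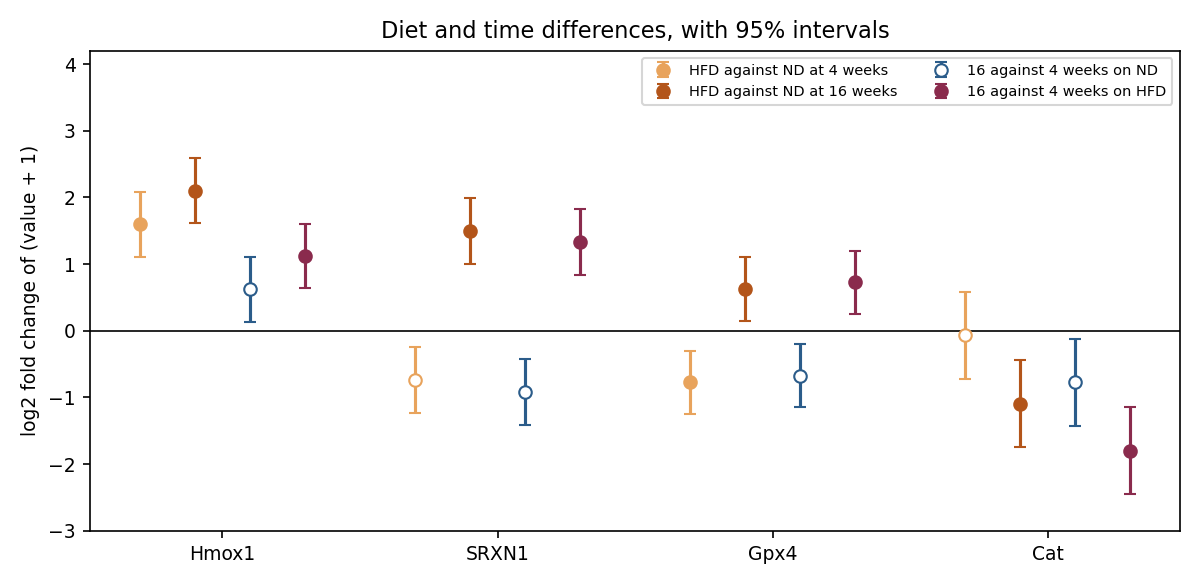
Log2 fold changes of (value + 1) of the 4 genes for diet at each time and for time on each diet, from the limma fit of 12 libraries; bars are 95% intervals, filled points were called at an adjusted p under 0.05, and open points were not. Hmox1 lies above 0 in all 4 comparisons and Cat at or below 0, while SRXN1 and Gpx4 change side between 4 and 16 weeks and between ND and HFD.

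From 4 to 16 weeks on HFD, Hmox1, SRXN1 and Gpx4 rose and Cat fell. All 4 were called, 3 higher and 1 lower, beside 17% of all unigenes (9.19% higher and 7.78% lower). Their 16-week libraries did not overlap those of 4 weeks, as was the case for 15.7% of all unigenes upward and 18.6% downward. Hmox1 rose by log2 1.12 (SE 0.22, limma adjusted p = 0.00434) and Gpx4 by 0.73 (SE 0.22, adjusted p = 0.0399). Cat fell by 1.80 on the log2 scale (SE 0.30, limma adjusted p = 0.00147), from 1032 ± 41.1 to 305 ± 99.8 (SD, n = 3 each), and 3.39% of all unigenes had a lower fold change. The Gpx4 call was lost without ND 4W 1 (adjusted p = 0.0514), HFD 4W 1 (0.126), HFD 4W 2 (0.076), HFD 4W 3 (0.0697), ND 16W 2 (0.0548), HFD 16W 1 (0.139) or HFD 16W 2 (0.0885). It was also lost with the library number as a block, in the fit of all libraries (0.0615) and in a fit of the HFD libraries alone (0.0685).

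On ND over the same time none of the 4 was called by limma (0 of 4, beside 0.379% of all unigenes, 0.211% higher and 0.169% lower), although each had an unadjusted p under 0.05. Hmox1 was higher in every 16-week ND library, and SRXN1, Gpx4 and Cat were lower in every one. Of all unigenes 8.21% stood higher without overlap and 12.1% lower. The log2 differences were 0.62 for Hmox1, -0.92 for SRXN1, -0.67 for Gpx4 and -0.78 for Cat. The adjusted p of Gpx4 was 0.155 with all libraries and 0.0481 without ND 4W 2.

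Other genes of the antioxidant system were read from lists of 294 names, chosen with earlier results of these data known; 59 of them, besides the 4 genes, could be tested. At 4 weeks 8 of the 59 were higher and 7 lower on HFD (25.4% called, beside 12.1% of all unigenes), with a median log2 fold change of 0.07, beside -0.03 over all unigenes. That split depended on scaling: after median-ratio rescaling 11 were higher and 3 lower, with a median of 0.21, beside 0.10. At 16 weeks 17 were higher and 23 lower (67.8% called, beside 35.2%), with a median of -0.22, beside -0.12. The medians include hpx, ACO1, Gpx3 and TXN, which were detected in 2 to 8 of the 12 libraries. TXN, which passed the filter only through ND libraries, is also counted among the lower calls at both times. The higher calls at 16 weeks include Gpx8 and Ggt5, which passed it only through HFD libraries. The lower ones include Acox2, which stood close to it. The 15 calls at 4 weeks numbered 6 without ND 4W 1, 9 without ND 4W 3, 9 without HFD 4W 2 and 7 without HFD 4W 3. Without the HFD libraries numbered 1, 11 of the 15 calls at 4 weeks were kept and 35 of 39 still tested at 16 weeks. Over time on ND none of the 59 was called by limma (0, with 11 at an unadjusted p under 0.05).

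**Figure D3:**
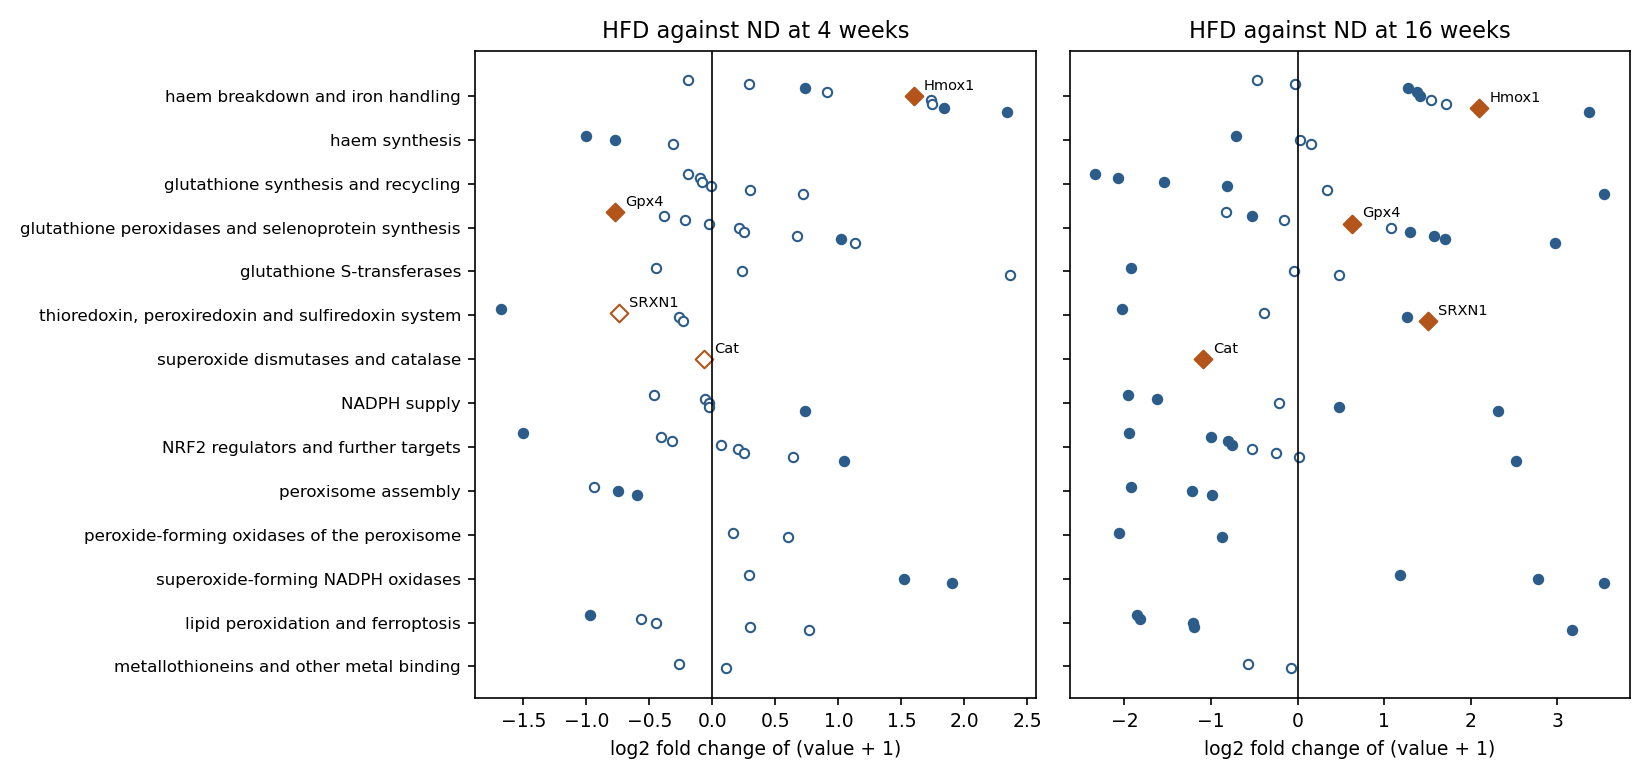
Log2 fold change of (value + 1), HFD against ND, of the tested genes of each antioxidant list at 4 weeks and at 16 weeks (the horizontal axes of the panels differ); diamonds are Hmox1, SRXN1, Gpx4 and Cat, filled symbols were called and open ones were not. Peroxisome assembly genes lie to the left at both times and NADPH oxidase genes to the right, and more symbols are filled at 16 weeks.

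Around Hmox1, the called genes of haem breakdown and iron handling were all higher on HFD. Of 8 tested besides Hmox1, 3 rose at 4 weeks and 4 at 16 weeks, and none was called lower (all unigenes, 4.89% and 15.3% higher). Among the 8, hpx and ACO1 stood at the lowest value in every ND library and passed the filter only through HFD libraries, so no median is given. Slc11a1, which moves iron and manganese out of the phagosome, rose from 1.85 ± 0.154 to 13.5 ± 1.44 at 4 weeks and from 3.38 ± 0.96 to 44.2 ± 11.2 at 16 weeks (SD, n = 3 each). Blvra, biliverdin reductase, which acts on the product of haem oxygenase, was 8.80 ± 1.53 in ND and 7.57 ± 1.47 in HFD at 4 weeks (limma adjusted p = 0.561). At 16 weeks it rose from 5.85 ± 1.09 to 16.7 ± 2.24 (log2 1.38, SE 0.19, adjusted p = 0.000225). LRP1, a receptor that also takes up haem bound to hemopexin, rose by log2 0.74 and 1.42, and Cp, the ferroxidase ceruloplasmin, by 1.84 and 1.28, at 4 and 16 weeks. LRP1 and Cp lost their 4-week calls without ND 4W 1, ND 4W 3 or HFD 4W 2, LRP1 also without HFD 4W 3. At 16 weeks the Cp call was lost without ND 4W 1, ND 16W 1, ND 16W 2, HFD 16W 1 or HFD 16W 2. The hpx unigene used, 1 of 2 with this name, for hemopexin, was detected in the HFD libraries numbered 1 alone. It was not called (limma adjusted p = 0.529 and 0.415). ACO1, an aconitase that also acts as an iron sensor, was detected in 4 libraries and was not called either (0.193 and 0.163). Both were mentioned after their values were seen. In haem synthesis Urod, uroporphyrinogen decarboxylase, was lower on HFD at both times (log2 -0.999 and -0.71), a 16-week call lost without ND 16W 1 or HFD 16W 3. Ppox of the same pathway was lower at 4 weeks only by call (log2 -0.77), lost in 9 of the 12 fits without 1 library, and stood at 6.61 ± 1.16 in ND and 7.43 ± 0.488 in HFD at 16 weeks.

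Around Gpx4, 8 other genes of glutathione peroxidases and selenoprotein synthesis were tested. At 4 weeks 1 of the 8 rose (all unigenes, 12.1% called), and at 16 weeks 4 rose and 1 fell (35.2% called). The change of the diet effect between times was called for 2 of the 8, Gpx7 and Gpx8 (all unigenes, 10.1% called). Gpx3, another of the 8, was detected in the HFD libraries numbered 1 alone and was not called. Gpx7, a peroxidase of the endoplasmic reticulum that, unlike Gpx4, carries cysteine in place of selenocysteine, rose from 2.80 ± 1.19 to 28.3 ± 5.65 at 16 weeks (log2 2.97, SE 0.26, limma adjusted p = 1e-05). Gpx8, its relative in the same compartment, rose from 1.02 ± 0.185 to 5.88 ± 2.65. With means of 0.816 in ND 4W and 0.781 in HFD 4W, Gpx8 passed the filter on mean level only through HFD 16W. Its calls are therefore not read as a result. The selenoprotein genes Sepw1 and Selm rose by log2 1.58 and 1.30 at 16 weeks. Sepw1 was the 1 gene called at 4 weeks (log2 1.02), a call lost without any 1 library of that group pair other than HFD 4W 1. Secisbp2, which binds the selenocysteine insertion element of selenoprotein mRNAs, fell by 0.53 on the log2 scale at 16 weeks, a call lost without ND 16W 1, ND 16W 3, HFD 16W 1 or HFD 16W 2.

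Of 6 tested genes of glutathione synthesis and recycling, 0 were called by limma at 4 weeks (1 at an unadjusted p under 0.05; all unigenes, 12.1% called), and at 16 weeks 4 fell and 1 rose (all unigenes, 35.2% called). The change of the diet effect between times was called for 2 of the 6, Ggt5 and Hagh (all unigenes, 10.1% called). Cbs and Cth, which make cysteine from homocysteine, had log2 fold changes of -1.54 and -2.08, Hagh, glyoxalase 2, of -2.34 and Oplah, which recycles oxoproline, of -0.81, the last lost without ND 16W 1. The 1 that rose was Ggt5, a gamma-glutamyltransferase that cleaves glutathione conjugates such as leukotrienes, from 0.732 ± 0.085 to 19.8 ± 6.21 (SD, n = 3 each). With means of 0.90 in ND 4W and 2.13 in HFD 4W, Ggt5 passed the filter on mean level only through HFD libraries. Its calls are therefore not read as a result. Of 3 glutathione S-transferases Gstt1 fell at 16 weeks (log2 -1.93), and the other 2 were not called.

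In the company of SRXN1, the thioredoxin system had 3 other tested genes. Txndc5, a protein disulfide isomerase of the endoplasmic reticulum, rose from 30.7 ± 9.44 to 73.8 ± 12.2 at 16 weeks (log2 1.26, SE 0.23, limma adjusted p = 0.0015) and was not called at 4 weeks (log2 -0.27). The unigene named TXN was lower on HFD at both times (log2 -1.68 and -2.03) and was detected in 8 of 12 libraries, 6 of them ND. Its means were 2.75 and 3.41 on ND and 0.197 and 0.052 on HFD. It passed the filter on mean level only through the ND libraries, so its calls are not read as a result. No peroxiredoxin, the substrate of sulfiredoxin, was among the named unigenes matched.

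Around Cat, all 5 listed peroxisomal genes that could be tested were called lower on HFD at 16 weeks, beside 19.9% of all unigenes. Acox2, 1 of the 5, stood close to the filter on mean level, so its call is not read as a result. Of the superoxide dismutase and catalase list, only Cat could be tested. PEX3, which helps build the organelle, and Abcd3, its long-chain acyl-CoA transporter, had log2 fold changes of -0.98 and -1.92, both called. Abcd3 went from 86.4 ± 10.1 to 22.5 ± 5.71 (SD, n = 3 each). Both tested oxidases that produce hydrogen peroxide in the organelle were called lower too, HAO2 with a log2 fold change of -2.06 and Acox2 of -0.87, the latter from 1.12 ± 0.107 to 0.16 ± 0.0452 and lost without any 1 library of HFD 16W. At 4 weeks, when Cat was level, PEX3 was already called lower (log2 -0.59), a call lost in 11 of the 12 fits without 1 library. The phagocyte oxidase that makes superoxide stood on the other side: Cyba and Ncf1, subunits of this NADPH oxidase, rose by log2 1.52 and 1.90 at 4 weeks and by 2.77 and 3.54 at 16 weeks. RAC1, a small GTPase that takes part in activating it, rose by 1.18 at 16 weeks. Of all unigenes 4.89% were called higher at 4 weeks and 15.3% at 16 weeks.

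Genes that feed or regulate the system were mixed. Beside them, 4.89% of all unigenes were called higher and 7.22% lower at 4 weeks, and 15.3% and 19.9% at 16 weeks. Of 5 NADPH supply genes Tkt, the transketolase of the pentose phosphate pathway, rose at both times (log2 0.74 and 2.31), and Taldo1 rose at 16 weeks (0.48), a call lost without ND 16W 3 or HFD 16W 2. The 4-week call of Tkt was lost without ND 4W 1, ND 4W 2, HFD 4W 1, HFD 4W 2, HFD 4W 3 or ND 16W 1. The mitochondrial enzymes Nadk2, which phosphorylates NAD, and SHMT2, of one-carbon metabolism, fell at 16 weeks (log2 -1.96 and -1.63). Of 8 genes on the NRF2 list, Sqstm1, which encodes the autophagy receptor p62 that binds KEAP1, rose at both times (log2 1.04 and 2.52), and its 4-week call was lost without ND 4W 1, ND 4W 3, HFD 4W 2 or HFD 4W 3. Aox1, aldehyde oxidase, fell at both (log2 -1.51 and -0.76), and Akr7a2, Abcc3 and Nqo2 fell at 16 weeks (log2 -1.94, -0.998 and -0.80). The 16-week call of Aox1 was lost without ND 16W 1, ND 16W 3, HFD 16W 1 or HFD 16W 3, and that of Nqo2 without ND 16W 3. The other 3 were not called at either time. On the lipid peroxidation list, HSPB1, a small heat shock protein, rose from 16.5 ± 1.41 to 159 ± 39.7 at 16 weeks. Gch1, which starts tetrahydrobiopterin synthesis, Aldh3a2, which oxidises fatty aldehydes, Cisd1 and Akr1c13 fell (log2 -1.86, -1.82, -1.19 and -1.21). Akr1c13 was also called lower at 4 weeks (log2 -0.97), a call lost without any 1 library of 4 weeks other than HFD 4W 1. Slc30a1 and Atp7b, the metal transporters tested, were not called at either time (0 of 2, also 0 at an unadjusted p under 0.05 by limma).

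Markers of cell types moved with diet as well, and their part in the results above was not tested. In bulk tissue, fewer cells of a type and less RNA per cell cannot be told apart. Of 25 macrophage names 8 were in the table. Their summed level was 20.6 to 29.4 in ND 4W, 125 to 153 in HFD 4W, 44.0 to 58.7 in ND 16W and 1514 to 1904 in HFD 16W. The largest share of the HFD 16W sums was Gpnmb (mean 1436), before Cd68 (229). Cd68, a lysosomal protein of macrophages, was higher on HFD by log2 2.19 and 4.17 at 4 and 16 weeks, beside 1.60 and 2.10 for Hmox1. The difference of Mrc1 was smaller than that of Hmox1 at both times, log2 0.56 at 4 weeks (not called) and 1.46 at 16 weeks. Cd5l of the same list was called higher at 4 weeks (log2 3.38) and lower at 16 weeks (-3.73). CD163, the haemoglobin scavenger receptor, C1qc and Cd9 were detected in at most 4 of 12 libraries. Of 20 hepatocyte names 10 were in the table, with a summed level of 30786 to 37058 in ND 4W, 11488 to 33370 in HFD 4W, 32519 to 40285 in ND 16W and 7691 to 33549.5 in HFD 16W. ALB made up most of these sums and was not called at either time (limma adjusted p = 0.875 and 0.574). Apoa2 and AHSG were detected in the HFD libraries numbered 1 alone. At 16 weeks 2 of the 10 hepatocyte genes fell, F9 (log2 -2.42) and Cps1 (-1.22), beside -1.09 for Cat. The other 8 were not called, and 19.9% of all unigenes were called lower. Stellate cell and myofibroblast markers (5 of 14 names) summed to 26.8 to 29.7 in ND 4W, 56.4 to 78.4 in HFD 4W, 21.9 to 28.7 in ND 16W and 644 to 1396 in HFD 16W. The 1 cholangiocyte marker, Slc4a2, rose at 16 weeks (log2 0.88), and the endothelial and the neutrophil and lymphocyte lists, with 2 names each, held no called gene. Of 15 names of red cell genes, 3 were in the table, Hba, Ahsp and Sptb. The haemoglobin gene Hba, a sign of red cells or blood in the sample, was called higher on HFD at 16 weeks (log2 1.90, limma adjusted p = 0.0365). It stood at 483 ± 35.7 in ND 16W and 2348 ± 1944 in HFD 16W, whose libraries ran from 693 to 4489. At 4 weeks it was 1209 ± 343 in ND and 1004 ± 610 in HFD without a call (SD, n = 3 each). Ahsp, detected in 9 of 12 libraries, was not called at either time (limma adjusted p = 0.398 and 0.193). Sptb was too low to be tested, with means of 1.094 in ND 16W and 1.086 in HFD 16W.

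**Figure D4:**
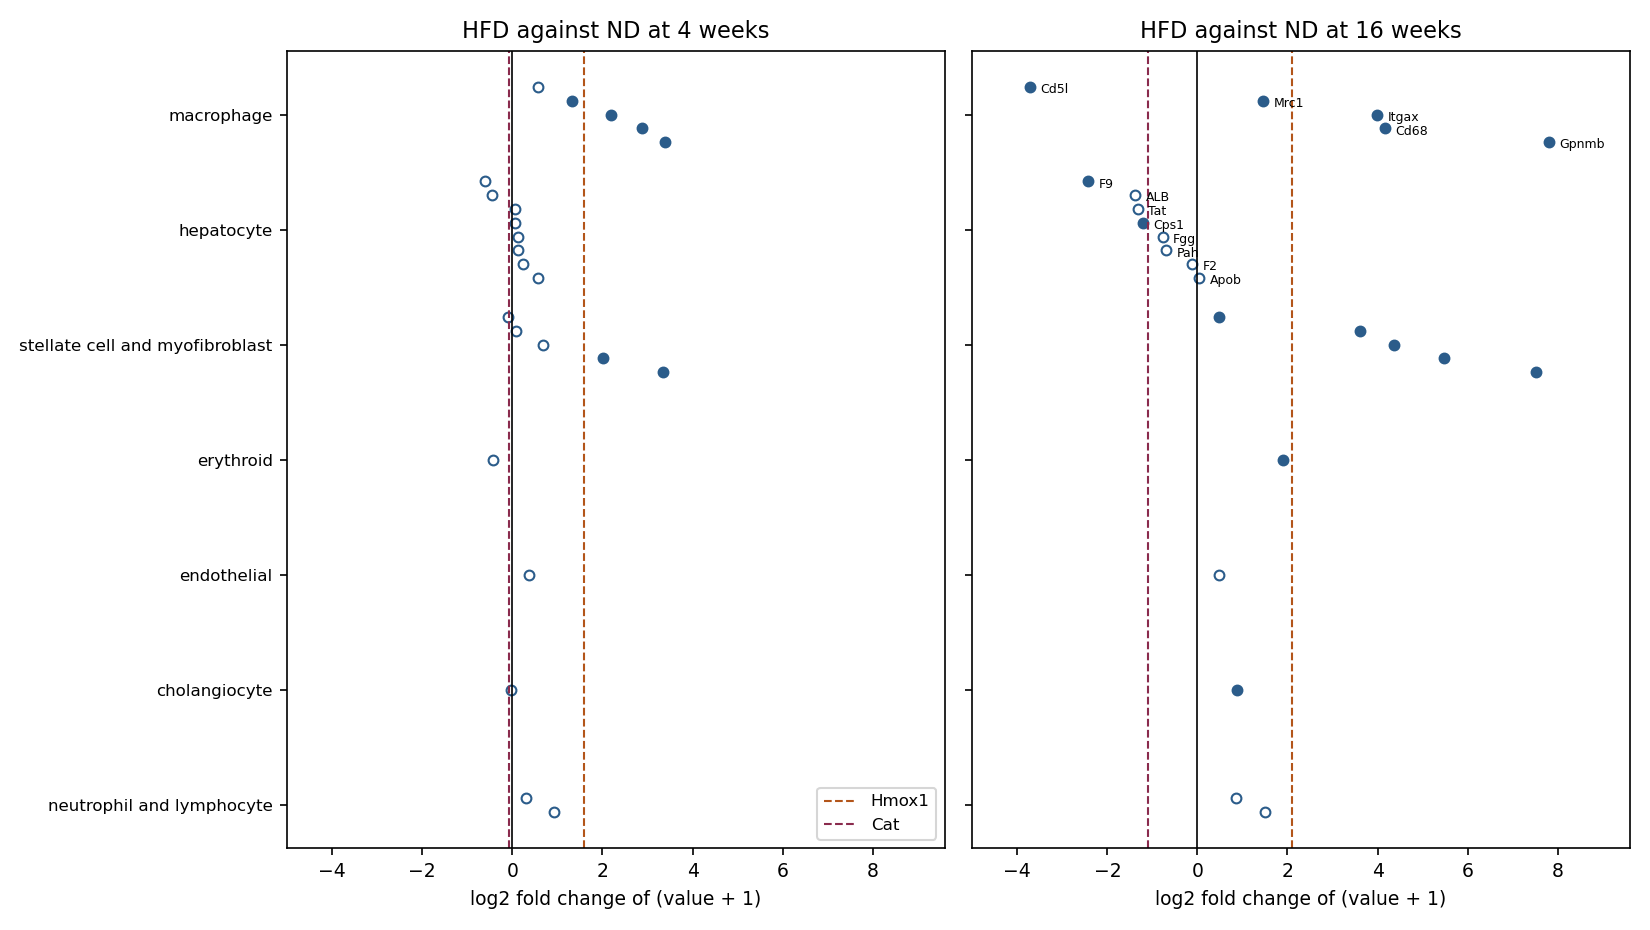
Log2 fold change of (value + 1), HFD against ND, of cell type markers detected in all 12 libraries, by list, at 4 and 16 weeks; filled points were called and open ones were not, and dashed lines mark Hmox1 and Cat. Most macrophage and stellate cell markers lie beyond Hmox1 at 16 weeks, and hepatocyte markers lie on both sides of Cat.

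The named unigenes most like each gene over the 12 libraries were ranked by Pearson's r of log2(value + 1), among 2197 detected in all of them. These r values describe groups of libraries that differ by diet and time and are not independent points. For Hmox1 they were Slc11a1 (r = 0.98), Cyba (0.98), PABPC1 (0.97), Gnai2 (0.97) and Cd53, a leukocyte membrane protein (0.97). The least like were Ndufb5 and NDUFB11, of respiratory complex I, and Mrpl15, a mitochondrial ribosomal protein (r = -0.98, -0.98 and -0.97). For SRXN1 they were Wdcp (0.93), the histone methyltransferase EZH2 (0.92), NACA (0.92), Fam220a (0.91) and the autophagy protein Becn1 (0.91), and the least like were Etnppl, a unigene named Pol and the clock gene Per3 (-0.94, -0.91 and -0.91). For Gpx4 they were Ctsa (0.90), Trmt6 (0.88), Nelfb (0.87), Arhgef5 (0.86) and Pcbp3 (0.86), with Zcchc2, Slc25a34 and Creb3l3 the least like (each -0.82). Cat was followed most closely by the ammonium transporter Rhbg (0.94), ABCA6 (0.94), Tnfaip8l1 (0.94), L3hypdh (0.94) and the carboxylesterase Ces2e (0.94). Gna13, Aplp2 and Stx12 were the least like it (-0.96, -0.95 and -0.94). Ctsa had means of 233 and 122 in ND and HFD at 4 weeks and of 113 and 270.0 at 16 weeks, and Rhbg of 13.3 and 11.9 and then of 7.17 and 1.82.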

How the data were processed

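Expression was measured by RNA-seq of gerbil liver. The deposited signal, a normalized expression level per unigene, was made by the authors: reads were assembled with Trinity 2.4.0, per the labels' protocols, and the submitters' processing notes also name Salmon and edgeR without version or role. The sources used here do not name the abundance unit that was normalized. Groups and library numbers come from the sample titles, and 0 columns of other samples were present. The 12 libraries of 4 and 16 weeks were fitted together with limma 3.58.1 (R 4.3.3, trend) on log2(value + 1), for unigenes with a mean of at least 1, as group means with 5 contrasts and Benjamini-Hochberg adjustment over all 9487. The fit was first tested on simulated data with independent noise for each unigene. Those data held no library sets, so that test cannot speak to them. Intervals are 95%. For a name with several unigenes the one of highest mean was used. Among list and marker genes named here, this applied to Cp (5 unigenes) and to Cat, hpx, Cyba, Akr1c13 and Hba (2 each). Apart from CAT, their other unigenes are not described.

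The 4 genes and all lists were chosen with earlier results of these data known. From the lists the text names genes called in either diet comparison, or up to 3 of the highest mean where a list has none; 1 called gene is not reported here. For each of the 4 genes it also names the 5 unigenes of highest and the 3 of lowest r. Library numbers were checked as pairs by correlating deviations from group means. Same-numbered HFD libraries of 4 and 16 weeks correlated at 0.397, 0.18 and 0.117, for numbers 1 to 3. The highest r with another number was -0.216, 0.132 and 0.0882, so only number 1 stood well apart. The labels state no link, and a pairing of these libraries is not established. Same-numbered ND and HFD libraries did not correlate (-0.0244 to -2.29e-05). The main fit used no pairs, and the library number entered only as a block in an alternative fit. Alternatives were other pseudocounts, filters and scaling, the library number as a block, robust variance, fits of 1 time or diet, values summed by name, the HFD libraries numbered 1 left out or given a term, and each library left out.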

Additional observations from a re-analysis of the deposited data

Results flagged for a closer look

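The diet effect at 16 weeks minus that at 4 weeks was called by limma for 2 of the 4 genes. It was also called for 17 of the 59 other list genes tested (28.8%), beside 10.1% of all unigenes. Genes with such a call are given here, and the lists were chosen with earlier results of these data known. On the log2 scale the change was 2.24 for SRXN1 and 1.40 for Gpx4, whose diet differences changed sign between the times. On the upper side it was 2.82 for Ggt5, 2.77 for Gpx7, 2.40 for HSPB1, 1.73 for Gpx8, 1.64 for Ncf1, 1.58 for Tkt, 1.57 for Blvra, 1.53 for Txndc5, 1.48 for Sqstm1, 1.02 for Slc11a1 and 0.90 for RAC1. On the lower side it was -2.24 for Hagh, -2.19 for Akr7a2, -2.12 for Aldh3a2, -1.94 for Nadk2, -1.57 for SHMT2 and -1.29 for Gch1. Signs also changed for Blvra, Txndc5 and Gpx8 (4-week log2 -0.20, -0.27 and -0.02) and for Aldh3a2 and Akr7a2 (0.30 and 0.25). Those 4-week differences were not called. Gpx8 passed the filter on mean level only through HFD 16W, and Ggt5 only through HFD libraries. In fits without 1 library, Akr7a2, Ncf1, Slc11a1, Gpx8, SHMT2 and Sqstm1 lost the call at least once, and the other 11 list genes kept it in all 12. Without both HFD libraries numbered 1, 7 of the 17 kept it: of the 6 on the lower side none did.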

How the results depend on the processing

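Across the alternatives no difference of the 4 genes that was called changed sign; the uncalled 4-week difference of Cat became 0.13 after median-ratio rescaling. Hmox1 (4 weeks, 16 weeks, time on HFD), SRXN1 (16 weeks, change of diet effect, time on HFD) and Cat (time on HFD) kept their calls in all of them and without any 1 library. The cause of the changes that follow was not tested.

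Unigenes called numbered 613 (4 weeks), 1158 (16 weeks), 914 (time on HFD) and 125 (time on ND) at a mean of at least 5, where 1857 were tested, against 1149, 3340, 1610 and 36. For time on ND they numbered 56 and 149 with pseudocounts of 0.1 and 5, 14 without a filter, 12 without the HFD libraries numbered 1, 9 with robust variance and 0 with ND alone (limma; 1249 at an unadjusted p under 0.05). Without the HFD libraries numbered 1, 455 changes of the diet effect (959 with them) and 931 for time on HFD were called. Of list genes, 26 and 8 changes of the diet effect were called at a mean of at least 5 and without those libraries (17 in the full fit), and for time on ND 1 with a pseudocount of 5 and 3 at a mean of at least 5. That filter brought SRXN1 under the threshold at 4 weeks (-0.74, adjusted p = 0.0270, limma) and on ND over time (-0.92, 0.0390). The other alternatives left its 4-week difference uncalled, with limma adjusted p up to 0.165 without the HFD libraries numbered 1. Rescaling moved the split of 4-week calls from 464 higher and 685 lower to 597 and 505, and the median of all unigenes from -0.03 to 0.10. For time on ND it moved the share of higher calls from 55.6% to 67.6%.

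Gpx4 lost its 4-week call (limma) after rescaling (-0.58), without the HFD libraries numbered 1 (-0.68), with a term for them (-0.78, adjusted p = 0.0544) and with 1 time alone (-0.78, 0.0748). It lost the 16-week call without those libraries (0.52) and with the term (0.62), the change of diet effect without them (1.20), and time on HFD without them (0.53) and with the term (0.73). Cat at 16 weeks was -0.97 without them (limma adjusted p = 0.07).

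With the library number as a replicate block, Gpx4 was -0.78 at 4 weeks (limma adjusted p = 0.0604), 0.62 at 16 weeks (0.0612) and 0.73 over time on HFD (0.0615; 0.73 with 0.0685 in HFD libraries alone, a fit chosen after seeing the data), and 19 unigenes were called over time on ND. The block changed no other call of the 4 genes.

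Leaving out 1 library gave 710 to 1194 calls at 4 weeks (710 without HFD 4W 3, 747 without ND 4W 1), 590 to 940 for the change of the diet effect and 981 to 1693 for time on HFD (both lowest without HFD 16W 2), and 0 to 233 on ND. List calls ran from 6 to 17 at 4 weeks and 0 to 4 on ND. SRXN1 at 4 weeks ran from -0.89 to -0.59, and Gpx4 from -0.998 to -0.61 at 4 weeks, 0.52 to 0.73 at 16 weeks, 0.63 to 0.82 over time on HFD and -0.90 to -0.50 on ND. Cat at 16 weeks ran from -1.35 to -0.96. Depth and the number of animals per library are unknown, and ranks set the values.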

Other observations

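Macrophage markers did not move as 1 group, and their part in the results above was not tested. Cd5l, a secreted protein of resident liver macrophages, rose on HFD at 4 weeks from 5.49 ± 4.43 to 51.7 ± 12.5 and fell at 16 weeks from 20.1 ± 7.86 to 0.689 ± 1.04 (SD, n = 3 each; limma adjusted p = 0.00508 and 0.00091). Gpnmb, a glycoprotein of lipid-laden macrophages, rose at 16 weeks from 6.67 ± 4.53 to 1436 ± 150.0 (log2 7.81, limma adjusted p = 8.19e-07), and Itgax from 0.986 ± 0.339 to 30.3 ± 1.34. Itgax, with a mean of 0.933 in ND 4W, passed the filter on mean level only through HFD libraries.

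Gpx3, the plasma glutathione peroxidase made chiefly by the kidney in mammals, was detected in the HFD libraries numbered 1 alone, at 12.7 (HFD 4W 1) and 9.96 (HFD 16W 1). Apoa2 (10.3 and 6.05), AHSG (12.3 and 8.48) and hpx (48.0 and 40.2) were detected in the same 2 libraries alone.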
